A study of Homo sapiens with 4 samples.

Results

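The zinc finger genes of human chromosome 19 were examined in H1 cells, a human embryonic stem cell line, on day 2 of hematopoietic differentiation with and without IWP2. Members were all rows of the expression table whose symbol is ZNF followed by a number and at most 1 letter and whose locus lies on chromosome 19. There were 260 members among the 58365 rows of the table, of which 246 were annotated as protein coding and 14 as pseudogenes. Another 296 genes with such names lay on other chromosomes. All cells were H1 cells kept in a custom mTeSR1 medium that contained activin A at 40 ng/ml and BMP4 at 50 ng/ml for 2 days by the sample labels. The methods of the study give these concentrations the other way round. The DMSO group received the vehicle and the IWP2 group received IWP2, which inhibits Porcupine, the enzyme that makes Wnt ligands fit for secretion. Each group held 2 libraries of bulk RNA from this single cell line. The labels do not say whether the 2 libraries of a group came from separate cultures, so p-values measure the spread between these libraries, which may be technical. Levels were given as FPKM, mapped fragments scaled to transcript length and library size, and the depth of the libraries was unknown.

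Chromosome 19 carries the densest collection of zinc finger genes in the human genome. They arose largely by repeated local duplication and stand in clusters of related neighbors. Most encode a KRAB domain, which recruits the co-repressor TRIM28 (also called KAP1), followed by a row of C2H2 zinc fingers, in which paired cysteines and histidines hold a zinc ion and neighboring residues read DNA. Many of these proteins bind transposable elements and direct their silencing in pluripotent cells through SETDB1 and histone H3 lysine 9 methylation.

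The sequence feature that defines the family is shown for the 6 members that passed the test for a change with IWP2 and whose coding sequence holds the finger pattern. Each line is the first stretch of the coding sequence that translates to the C2H2 spacing, a pair of cysteines 2 to 4 residues apart, 12 residues, and a pair of histidines 3 to 5 residues apart, and the capitals mark the codons of the cysteines and histidines. The sequences came from GENCODE 29 transcripts and lie in coding exons of GRCh38 at chr19:53576957-53577019 on the plus strand for ZNF331, chr19:34959393-34959461 on the minus strand for ZNF792, chr19:21182919-21182981 on the plus strand for ZNF431, chr19:57927869-57927931 on the minus strand for ZNF418, chr19:51891536-51891598 on the minus strand for ZNF649, chr19:52384220-52384282 on the plus strand for ZNF880.
ZNF331: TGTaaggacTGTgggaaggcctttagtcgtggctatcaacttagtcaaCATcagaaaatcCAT
ZNF792: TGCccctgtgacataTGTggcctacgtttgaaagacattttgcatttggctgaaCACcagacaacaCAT
ZNF431: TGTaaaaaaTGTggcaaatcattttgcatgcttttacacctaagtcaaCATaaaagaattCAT
ZNF418: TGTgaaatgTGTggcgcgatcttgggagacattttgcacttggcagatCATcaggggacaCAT
ZNF649: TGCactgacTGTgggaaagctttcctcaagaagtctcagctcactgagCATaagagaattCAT
ZNF880: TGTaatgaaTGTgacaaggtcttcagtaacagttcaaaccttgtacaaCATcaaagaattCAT
The match in ZNF792 spans 69 bases because it starts at a further cysteine codon upstream of the usual pair, and the other 5 matches span 63 bases each. Over the 246 coding members, this pattern was found from 0 to 36 times per protein with a median of 12, and the highest number was in ZNF208. The coding length ran from 137 to 1365 residues with a median of 591 residues. The letters that mark the start of a KRAB domain, D-V, any residue, V, I, L or M, any residue, F, any 4 residues and W, were found in 182 coding members and not in the other 64. No match says only that these letters are missing, because KRAB domains with another residue in the last place exist.

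The start sites are shown for the changed members that had an entry in the RefSeq promoter table, which matched 215 of the 260 members. Each line gives 100 bases that end just before the start in RefSeq, or before the start in the expression table where that lies further upstream, 5′ to 3′ on the strand of the gene, with CG dinucleotides in capitals, since the number of these was compared with all promoters. The sequences came from RefSeq on GRCh38.p14 and lie at chr19:21141924-21142023 on the plus strand for ZNF431, chr19:34964230-34964329 on the minus strand for ZNF792, chr19:52369817-52369916 on the plus strand for ZNF880, chr19:53520881-53520980 on the plus strand for ZNF331, chr19:57935403-57935502 on the minus strand for ZNF418.
ZNF431: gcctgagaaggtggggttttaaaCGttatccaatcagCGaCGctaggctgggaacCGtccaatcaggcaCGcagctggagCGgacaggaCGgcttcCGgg
ZNF792: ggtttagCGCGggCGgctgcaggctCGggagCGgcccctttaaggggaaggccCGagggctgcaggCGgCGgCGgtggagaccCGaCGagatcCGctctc
ZNF880: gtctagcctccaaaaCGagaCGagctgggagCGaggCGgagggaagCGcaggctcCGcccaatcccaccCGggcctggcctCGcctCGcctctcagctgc
ZNF331: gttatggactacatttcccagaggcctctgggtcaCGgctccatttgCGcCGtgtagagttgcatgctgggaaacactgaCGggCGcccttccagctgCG
ZNF418: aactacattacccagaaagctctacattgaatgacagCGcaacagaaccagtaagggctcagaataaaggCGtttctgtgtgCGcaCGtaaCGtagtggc
For ZNF792 and ZNF418 the RefSeq start lies upstream of the gene bounds in the table, so a gap separates their stretches from those bounds. These 5 stretches held 8, 12, 9, 6 and 5 CG dinucleotides in the order shown. In the 250 bases before the start, the median number of CG dinucleotides was 16 over the 215 members with a promoter and 11 over all 27305 promoters of the table. The TCF/LEF letters, CTTTG followed by 2 bases that are each A or T (searched on both strands), were found in 21 of the 215 member promoters (9.77%) and in 12.1% of all promoters. None of the 5 promoters shown held them.

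The state of the cells in the 4 libraries is given first, because it differed strongly between the groups. Of 7 genes that respond to Wnt signaling, 5 fell with IWP2 in limma on log2(FPKM + 0.5) with Benjamini-Hochberg adjusted p under 0.05 over all genes tested, and their summed level was 144.1 and 149.7 FPKM with DMSO against 26.07 and 26.09 FPKM with IWP2. All 9 mesoderm markers fell, from a summed level of 1168 and 1480 FPKM to 188.7 and 208.0 FPKM. Of 5 definitive endoderm markers 4 fell, and the summed level of the 5 went from 1799 and 2173 FPKM to 122.7 and 134.2 FPKM. CER1 made up most of this endoderm sum with DMSO, at 1612 and 2048 FPKM, and SOX17 did not pass the test. Of 7 pluripotency markers 5 rose, and their summed level was 1250 and 1061 FPKM with DMSO and 2519 and 2524 FPKM with IWP2. POU5F1 made up most of this sum, at 750.7 and 571.4 FPKM with DMSO and 1854 and 1844 FPKM with IWP2. NANOG and LIN28A did not pass the test. The gene T is in both the Wnt and the mesoderm list. Of 4 neuroectoderm markers 2 reached the level needed for the test and 1 of them, OTX2, fell. Of 6 hemato-endothelial markers 2 were tested and 1 of them, RUNX1, fell, with GATA1 at 0 in every library. Of 6 amnion or trophoblast markers 5 were tested, of which 2 rose and 1 fell. The part that this shift of cell state had in the ZNF values below was not tested, and in bulk RNA fewer cells of a type and less RNA per cell cannot be told apart.

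Most chromosome 19 ZNF genes were expressed, at low levels. A mean of at least 1 FPKM over the 4 libraries was reached by 215 of 260 members (82.7%), against 24.0% of all rows in the table, 73.6% of the ZNF genes on other chromosomes and 31.9% of the other genes on chromosome 19. Restricted to protein coding genes, the shares were 84.6% for the members, 80.2% for ZNF genes on other chromosomes, 60.1% for other chromosome 19 genes and 61.5% for all genes. The median level of the members was 3.42 FPKM, with quartiles at 1.58 and 6.31 FPKM. The number of members at or above 1 FPKM was 209 and 215 in the DMSO libraries and 212 and 211 in the IWP2 libraries, so the groups overlapped. There were 203 members at or above 1 FPKM in all 4 libraries and 44 below it in all 4. No member was above this level in both libraries of a group and below it in both libraries of the other group. The members just above it were ZNF583 at 1.03 FPKM and ZNF229 at 1.04 FPKM, and the member just below it was ZNF563 at 0.968 FPKM.

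**Figure D1:**
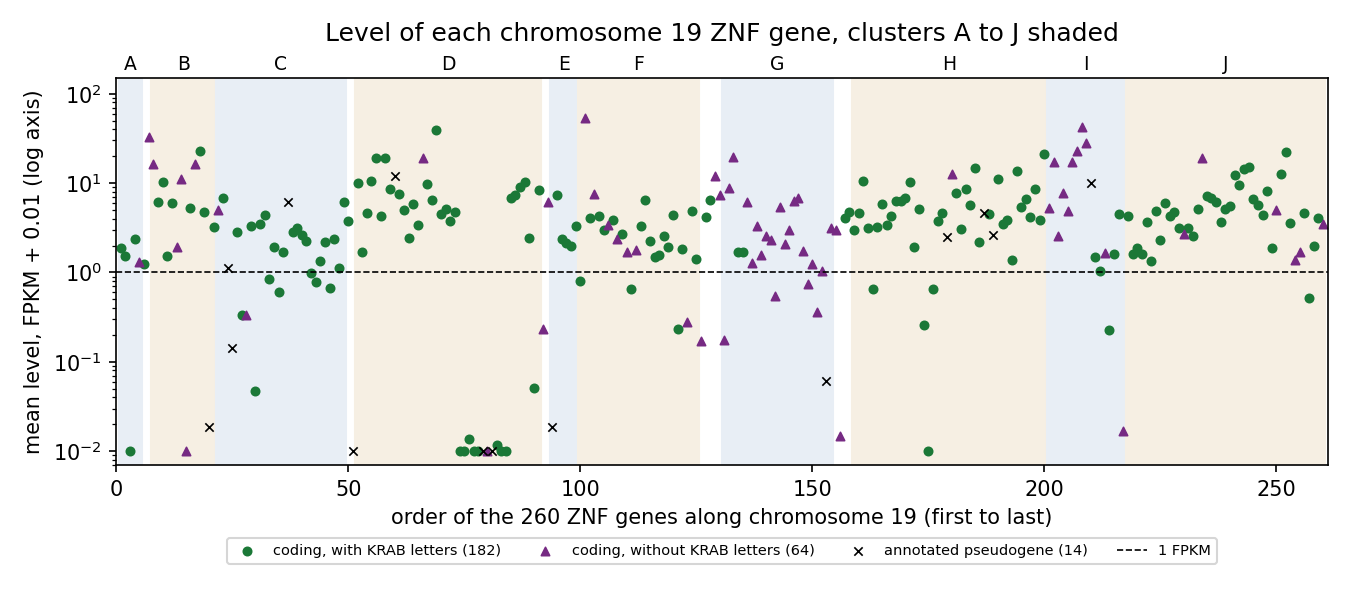
Mean level over the 4 libraries of each of the 260 chromosome 19 ZNF genes (FPKM + 0.01, log axis) against their order along the chromosome, with clusters A to J shaded and marker shapes for coding genes with and without the KRAB letters and for annotated pseudogenes. Most points lie above the dashed line at 1 FPKM, and a run of 11 neighbors in cluster D lies at the bottom of the axis.

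The highest levels belonged to a small group, many of whose members lack the KRAB letters. ZNF146, a protein that consists almost wholly of zinc fingers, was at 56.2 and 58.3 FPKM with DMSO and at 52.7 and 46.5 FPKM with IWP2. The next in order of mean level were ZNF787 (41.9 FPKM), ZNF738 (39.1 FPKM), ZNF358 (32.4 FPKM), ZNF444 (28.3 FPKM), ZNF581 (23.1 FPKM), ZNF561 (23.0 FPKM), ZNF544 (22.1 FPKM), ZNF331 (21.1 FPKM) and ZNF428 (19.8 FPKM). In all, 34 members reached a mean of 10 FPKM. Among coding members without the KRAB letters 15 of 64 (23.4%) did so, against 18 of 182 (9.89%) with them. Members without the letters may still hold a KRAB domain, and this difference was not tested. The share at or above 1 FPKM was 81.2% without and 85.7% with the letters, and the median levels were 3.06 and 3.75 FPKM. Of the 14 pseudogenes 7 reached 1 FPKM, with a median of 0.622 FPKM. The summed level of all members was 1346 and 1378 FPKM in the DMSO libraries and 1421 and 1400 FPKM in the IWP2 libraries, which was between 0.206% and 0.223% of the summed FPKM of a library.

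At the other end, 13 members were listed at 0 in all 4 libraries, and 9 of these lay within a stretch of neighbors that were all at or near 0. A run of 11 neighbors in cluster D (chr19:21932958-23003176, 1.07 Mb, GRCh38) stayed at or below 0.0147 FPKM in every library. In order these were ZNF208, ZNF257, ZNF676, ZNF729, ZNF98, ZNF209P, ZNF492, ZNF849P, ZNF99, ZNF723 and ZNF728. Only ZNF676, at 0.0147 FPKM in an IWP2 library, and ZNF99, at 0.00643 FPKM in a DMSO library, were listed above 0. The run was singled out after its values were seen. Its neighbors on either side were expressed in every library. ZNF43, before the run, was at 4.53 and 4.80 FPKM with DMSO and 5.12 and 4.48 FPKM with IWP2, and ZNF730, after it, was at 5.998 and 8.91 FPKM with DMSO and 5.48 and 6.49 FPKM with IWP2. In neither of these did the groups separate. ZNF98 and ZNF492 in the run share many 50-base stretches with other transcripts (41.1% and 33.9%), so reads of these genes and of their copies cannot always be told apart, whereas ZNF257 shares 2.63%. Most of this sharing was of ZNF98 and ZNF492 with each other (37.6% and 29.4%), and both were at 0 in every library. ZNF849P in the run shares 33.9%, the most with AL353795.1 (22.0%). The remaining 4 members at 0 were ZNF556, ZNF560, ZNF861P and ZNF534.

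With IWP2, few members changed, and with the values as deposited none had a fitted change as large as 1 on the log2(FPKM + 0.5) scale, which understates the change of low genes. In limma across all genes with a mean of at least 0.5 FPKM, 6 of 227 tested members rose and 2 fell at an adjusted p under 0.05, whereas 5.76% of all 15980 tested genes rose and 7.42% fell. The members called amounted to 3.52% of those tested, against 13.2% of all genes, 7.69% of the ZNF genes on other chromosomes (9 up and 9 down of 234) and 9.92% of the other chromosome 19 genes (65 up and 33 down of 988). Without adjustment, 32 members (14.1%) had a p under 0.05, 20 of them higher and 12 lower, against 28.8% of all genes. The log2 change of the members ran from -0.95 to 0.97. Other settings put up to 4 members past 1 in size. With a pseudocount of 0.1 FPKM these were ZNF610 (1.20), ZNF583 (-1.12) and ZNF611 (-1.01), which was 1.32% of members beside 14% of all genes, after rescaling to the same sum ZNF610 (1.04) and ZNF611 (-1.003), and after centering on the median ZNF610 (1.05). A change of at least 1 on the log2 scale was seen in 10.4% of all genes, 6.78% of other chromosome 19 genes and 3.42% of ZNF genes on other chromosomes. The absolute change was below 0.5 on the log2 scale in 206 members (90.7%) and in 74.0% of all genes. The median standard error of the change was 0.184 for the members and 0.158 for all genes, and the tested members had a median level of 4.18 FPKM against 7.94 FPKM for all tested genes. These differences between gene sets were not tested. The other 33 members lay below the filter, the highest of them ZNF285 at 0.35 FPKM, and the lowest member above it was ZNF132 at 0.514 FPKM.

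The direction of the small differences leaned upward. Both IWP2 libraries were above both DMSO libraries in 73 members (32.2%) and below them in 37 (16.3%), where the shares over all tested genes were 27.6% and 31%. The other chromosome 19 genes had a like split, with 33.3% higher and 19.6% lower, and the ZNF genes on other chromosomes had 27.4% higher and 32.9% lower. The median log2 change was 0.06 for the members, 0.07 for other chromosome 19 genes, -0.03 for ZNF genes on other chromosomes and -0.02 for all genes. The split depended on scaling. With each library rescaled to the same sum, 65 members were higher and 42 lower (25% and 32.3% of all genes), and with each library centered on its median 99 were higher and 25 lower (35.3% and 24.0% of all genes). The calls moved likewise, from 6 up and 2 down to 2 up and 3 down after rescaling and to 10 up and 1 down after centering. In that order, the calls were 3.52%, 2.2% and 4.85% of tested members, beside 13.2%, 13.5% and 13.7% of all genes. The upward share of the calls over all genes was 43.7% as deposited, 41.2% after rescaling and 53.4% after centering.

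**Figure D2:**
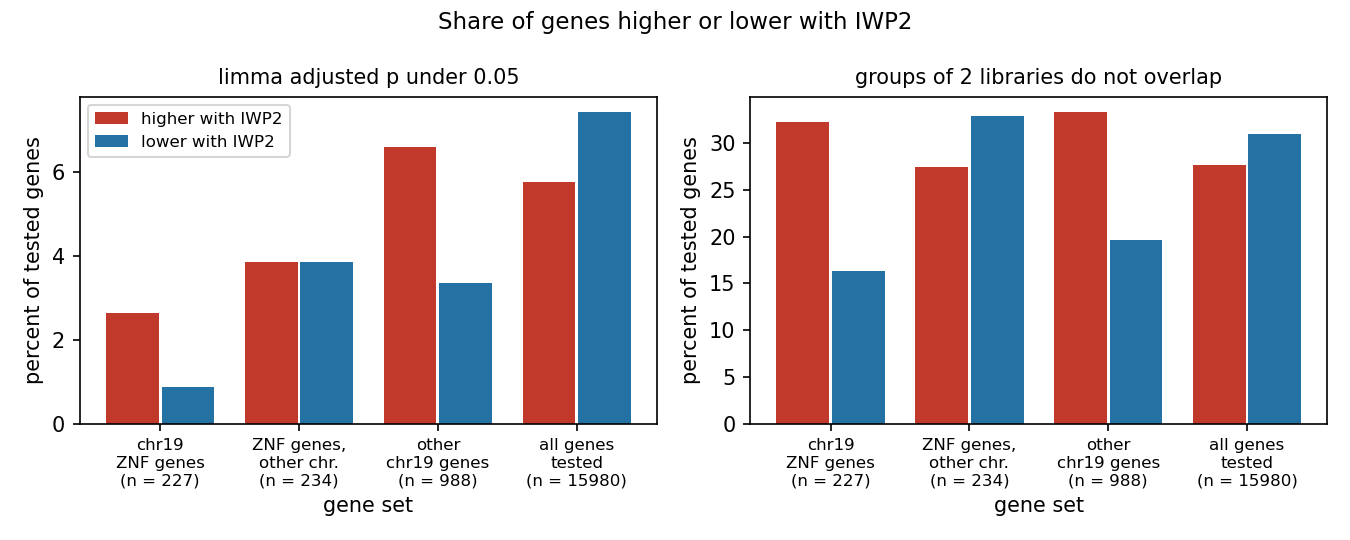
Percent of tested genes that were higher (red) or lower (blue) with IWP2 in each of 4 gene sets, by limma adjusted p under 0.05 (left) and by groups of 2 libraries that do not overlap (right). The chromosome 19 ZNF genes have the lowest bars on the left (2.64% and 0.881%), and on the right their bars are 32.2% higher and 16.3% lower.

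The 6 members that rose all carry the KRAB letters, which were found in 166 of the 220 tested coding members. ZNF649, a KRAB zinc finger gene in cluster H (ENSG00000198093.10, chr19:51889224-51905040), was at 7.11 and 7.73 FPKM with DMSO and at 13.1 and 14.02 FPKM with IWP2. Both IWP2 libraries stood well above both DMSO libraries, and the log2 change was 0.83 ± 0.114 (SE, limma adjusted p = 0.0131). ZNF880 in the same cluster (ENSG00000221923.8, chr19:52369917-52385795) was at 3.35 and 3.85 FPKM with DMSO and at 5.79 and 7.38 FPKM with IWP2, a log2 change of 0.78 ± 0.174 (SE, limma adjusted p = 0.0477). ZNF331, an imprinted gene at the end of cluster H (ENSG00000130844.16, chr19:53520981-53580269), was at 17.1 and 17.3 FPKM with DMSO and at 26.6 and 23.4 FPKM with IWP2, a log2 change of 0.53 ± 0.105 (SE, limma adjusted p = 0.0357). In each of these 3 genes the groups did not overlap.

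In cluster D, ZNF431 and ZNF738 rose, and these genes lie close together with ZNF708 between them. ZNF431 (ENSG00000196705.8, chr19:21142024-21196053) was at 7.40 and 7.29 FPKM with DMSO and at 12.5 and 11.4 FPKM with IWP2, a log2 change of 0.66 ± 0.115 (SE, limma adjusted p = 0.0244). ZNF738 (ENSG00000172687.13, chr19:21358930-21379302) was at 34.6 and 33.3 FPKM with DMSO and at 44.4 and 44.0 FPKM with IWP2, a log2 change of 0.38 ± 0.0816 (SE, limma adjusted p = 0.0440). ZNF738 is annotated with a coding sequence of only 137 residues that holds the KRAB letters and 0 zinc fingers. ZNF418 in cluster J (ENSG00000196724.12, chr19:57921884-57935393) was at 4.56 and 4.36 FPKM with DMSO and at 7.06 and 6.73 FPKM with IWP2, a log2 change of 0.58 ± 0.128 (SE, limma adjusted p = 0.0472).

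The 2 members that fell were a coding gene and a transcribed pseudogene. ZNF792, the last gene of cluster E (ENSG00000180884.9, chr19:34956354-34964049), was at 4.12 and 4.52 FPKM with DMSO and at 2.31 and 2.14 FPKM with IWP2. Its groups were apart by more than their spread, and the log2 change was -0.82 ± 0.158 (SE, limma adjusted p = 0.0321). ZNF702P in cluster H (ENSG00000242779.6, chr19:52968251-53037898) was at 3.35 and 3.57 FPKM with DMSO and at 1.79 and 1.76 FPKM with IWP2, a log2 change of -0.80 ± 0.165 (SE, limma adjusted p = 0.0390). ZNF702P overlaps 3 annotated genes on the opposite strand, and ZNF649 and ZNF431 each overlap 1. The library kit did not mark strand, so reads of such partners cannot be told apart. All 8 calls were lost whenever any of the 4 libraries was left out, when adjusted p ranged from 0.0775 for ZNF649 to 0.28 for ZNF880, but such a fit holds 1 library in a group and called few genes of any kind. The log2 changes kept their sign in all 13 alternative settings, from 0.77 to 0.91 for ZNF649, 0.60 to 0.74 for ZNF431 and 0.62 to 0.95 for ZNF880. Those of ZNF792 ran from -0.93 to -0.72 and those of ZNF702P from -0.93 to -0.69. With the library number as a replicate block, ZNF649, ZNF431 and ZNF880 passed the threshold and the other 5 did not (adjusted p of 0.051 to 0.0747), and both members that fell were replaced by ZNF611 and ZNF552.

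**Figure D3:**
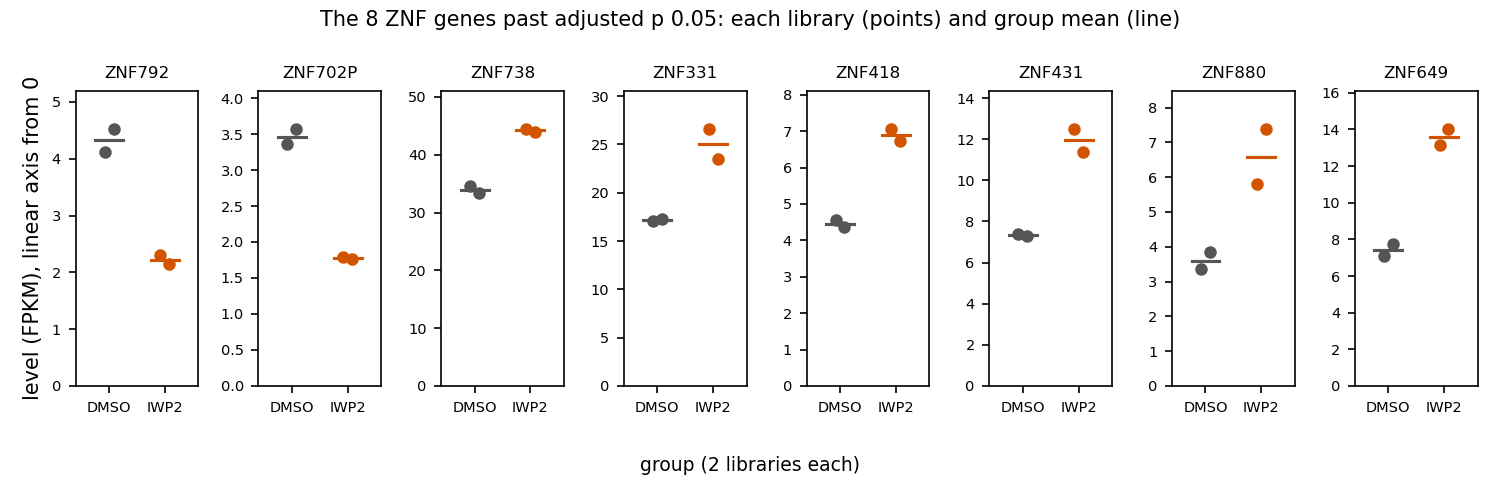
Level in FPKM (linear axes from 0, a separate scale for each gene) of the 8 chromosome 19 ZNF genes with limma adjusted p under 0.05, with points for the 2 libraries of each group and a line at the group mean. In each panel both IWP2 points lie on the same side of both DMSO points, below them for ZNF792 and ZNF702P and above them for the other 6.

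Larger fitted differences than most of these did not pass the test where libraries of a group were far apart. ZNF610, next to ZNF880 in cluster H, had the highest log2 change of all members at 0.97 ± 0.257 (SE, limma adjusted p = 0.0732), from 0.886 and 1.38 FPKM with DMSO to 3.10 and 2.30 FPKM with IWP2. ZNF611 had the lowest at -0.95 ± 0.278 (SE, limma adjusted p = 0.0929), from 11.5 and 8.94 FPKM to 6.59 and 3.76 FPKM. In both the groups did not overlap, but the libraries within each group were far apart. Among other members with mean levels of at least 1 FPKM and groups that did not overlap, ZNF57 (0.66), ZNF404 (0.65), ZNF525 (0.56) and ZNF625 (0.51) had the next highest log2 changes. On the low side stood ZNF583 (-0.82), ZNF584 (-0.65), ZNF264 (-0.63), ZNF552 (-0.63), ZNF665 (-0.59), ZNF814 (-0.56) and ZNF773 (-0.50). None of these 11 passed the adjusted threshold, although ZNF552 and also ZNF611 passed it with the replicate block. ZNF625 shares 81.4% of its 50-base stretches with other transcripts, mostly the readthrough transcript ZNF625-ZNF20, so its level depends on how such reads were divided.

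By position, members were grouped in order of their start, with a gap of over 500 kb starting a new cluster and at least 5 members needed. This gave 10 clusters, lettered A to J from the short-arm end, and left 15 scattered members. Cluster A (2.82 to 2.94 Mb) held 5 members and cluster B (8.51 to 9.79 Mb) held 14. Cluster C (11.48 to 12.64 Mb) held 28 and cluster D (19.67 to 24.13 Mb), which reaches toward the centromere, held 40. On the long arm, cluster E (34.54 to 34.96 Mb) held 6, cluster F (36.18 to 37.82 Mb) held 26 and cluster G (43.53 to 44.50 Mb) held 24. Cluster H (51.57 to 53.58 Mb) held 42, cluster I (55.48 to 56.67 Mb) held 17 and cluster J (57.19 to 58.48 Mb), at the end of the long arm, held 43.

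The expressed share differed along the chromosome. It was lowest in cluster C, where 19 of 28 members (67.9%) reached 1 FPKM, and in cluster D, where 28 of 40 (70.0%) did and the 11 neighbors listed near 0 made up most of the rest. It was highest in cluster J, with 42 of 43 (97.7%), followed by cluster H with 38 of 42 (90.5%) and cluster I with 15 of 17 (88.2%). Clusters A, B, E, F and G lay between, at 80.0%, 85.7%, 83.3%, 84.6% and 79.2%. The median level was lowest in cluster A (1.5 FPKM) and cluster G (1.90 FPKM) and highest in cluster B (5.62 FPKM) and cluster I (4.92 FPKM). Cluster I held 3 of the most abundant members, ZNF787, ZNF444 and ZNF581, and only 5 of its 16 coding members carried the KRAB letters. In cluster G the letters were found in 2 of 23 coding members, against 38 of 39 in cluster H and 37 of 43 in cluster J. A KRAB domain can be present without these letters, so these counts do not show which members lack the domain. At the ends of the family, ZNF554 lay first on the chromosome at 1.88 FPKM and ZNF446 lay last at 3.43 FPKM.

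By cluster, members with separate groups are given beside the shares over all tested genes, 27.6% higher and 31% lower. Cluster H had the most higher members. In cluster H, 19 of 40 tested members (47.5%) were higher in both IWP2 libraries and 6 (15%) lower, with a median log2 change of 0.20, and 3 rose and 1 fell by the test. In cluster J, 9 of 43 (20.9%) were higher and 13 (30.2%) lower, with a median of -0.05 and 1 that rose, and its share of lower members was near that over all genes. All 4 tested members of cluster A were higher, with a median of 0.26 and none that passed the test. In cluster C 9 of 24 were higher and 3 lower, in cluster B 4 of 12 and 0, in cluster F 6 of 24 and 2, in cluster G 5 of 21 and 3, and in cluster I 5 of 15 and 3. Cluster D had 5 of 28 higher and 4 lower, and cluster E had 3 of 5 higher and 1 lower. After rescaling to the same sum, cluster H had 18 higher and 7 lower and cluster J 8 higher and 14 lower. Over all genes the shares were then 25% higher and 32.3% lower. After centering on the median, cluster H had 21 higher and 4 lower. Cluster J then had 15 higher and 7 lower, with a median of 0.03. Over all genes the shares after centering were 35.3% higher and 24.0% lower. The difference between clusters was not tested.

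**Figure D4:**
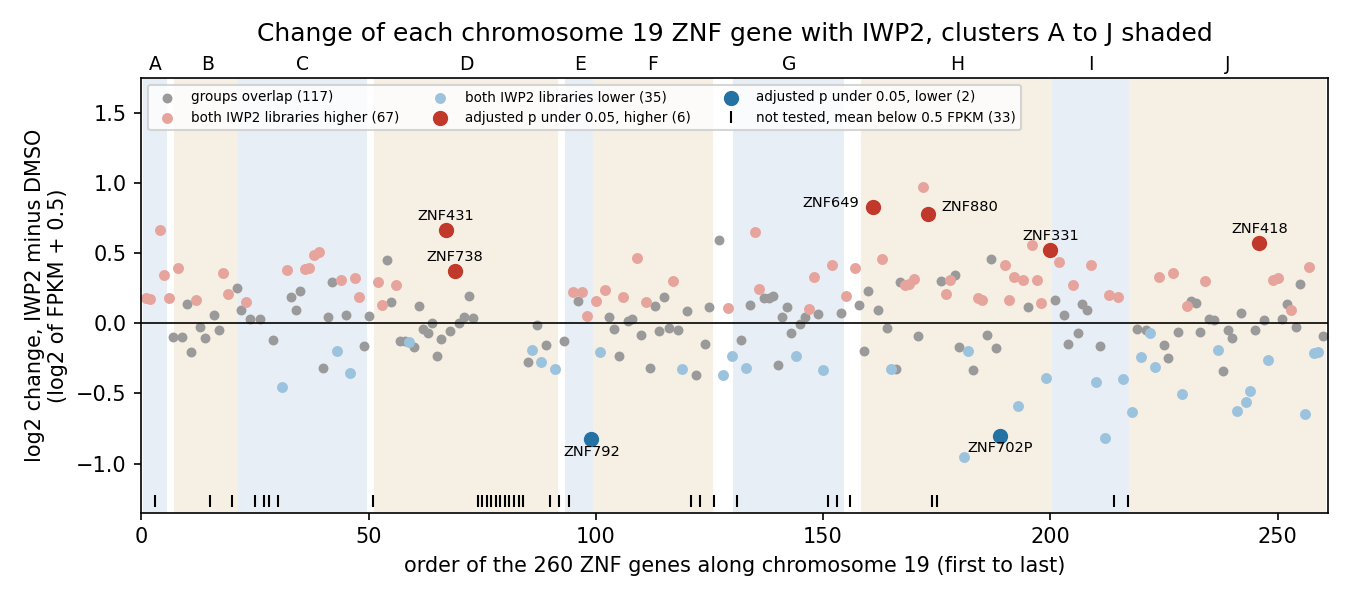
Log2 change with IWP2 (IWP2 minus DMSO, log2 of FPKM + 0.5) of the 227 tested chromosome 19 ZNF genes against their order along the chromosome, with clusters A to J shaded, large points for the 8 genes past adjusted p 0.05 and ticks for the 33 genes not tested. All points lie between -0.95 and 0.97, and the points with both IWP2 libraries higher (pale red, or red where past the threshold) are most numerous in cluster H, with 19.

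Runs of at least 3 neighbors with both IWP2 libraries higher were found 5 times and runs in the lower direction 0 times, counted along the tested members and passing over untested ones. Members higher in both IWP2 libraries made up 32.2% of those tested and members lower 16.3%, beside 27.6% and 31% of all genes, and whether neighbors moved together was not tested. After rescaling to the same sum there were 4 higher runs and 1 lower. In that setting 65 members were higher and 42 lower, beside 25% and 32.3% of all genes. After centering on the median there were 12 higher runs and 0 lower. More members were then higher, 99 against 25 lower, beside 35.3% and 24.0% of all genes. In cluster A the run was ZNF554, ZNF555, ZNF57 and ZNF77, passing over ZNF556 at 0, with log2 changes of 0.18, 0.17, 0.66 and 0.35. In cluster C it was ZNF844, ZNF788, ZNF20 and ZNF625, with log2 changes of 0.39, 0.40, 0.49 and 0.51. The last 3 of the cluster C run lie within each other's bounds or share readthrough transcripts, so their values may not be independent. The other 3 runs, ZNF616 to ZNF766, ZNF160 to ZNF347 and ZNF525 to ZNF761, all lay in cluster H. None of the 17 members of these runs passed the test alone.

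The levels of a cluster were also summed, so that its most abundant members weigh most. Cluster H summed to 229.1 and 217.1 FPKM with DMSO and to 261.1 and 238.9 FPKM with IWP2. Its groups did not overlap as deposited, after rescaling to the same sum or after centering on the median, the 3 scalings used here. Cluster A summed to 5.90 and 5.94 FPKM with DMSO and to 8.66 and 7.72 FPKM with IWP2, cluster B to 98.8 and 102.2 FPKM against 114.9 and 109.5 FPKM, and cluster C to 61.0 and 63.9 FPKM against 67.9 and 68.2 FPKM, each higher with IWP2 under the 3 scalings. Cluster J summed to 250.1 and 255.7 FPKM with DMSO and to 246.0 and 230.7 FPKM with IWP2, and its groups overlapped after either rescaling. Cluster D was higher as deposited, at 243.3 and 247.0 FPKM against 263.6 and 249.5 FPKM, and its groups overlapped after rescaling to the same sum. In clusters E, F and G the groups overlapped under each of these 3 scalings. Cluster I summed to 155.3 and 167.0 FPKM with DMSO and to 160.6 and 190.2 FPKM with IWP2. Its groups overlapped as deposited and after rescaling to the same sum, and it was higher with IWP2 after centering. With 2 libraries a group, an exact permutation test cannot give a p below 0.333, and the sums were not tested in another way.

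**Figure D5:**
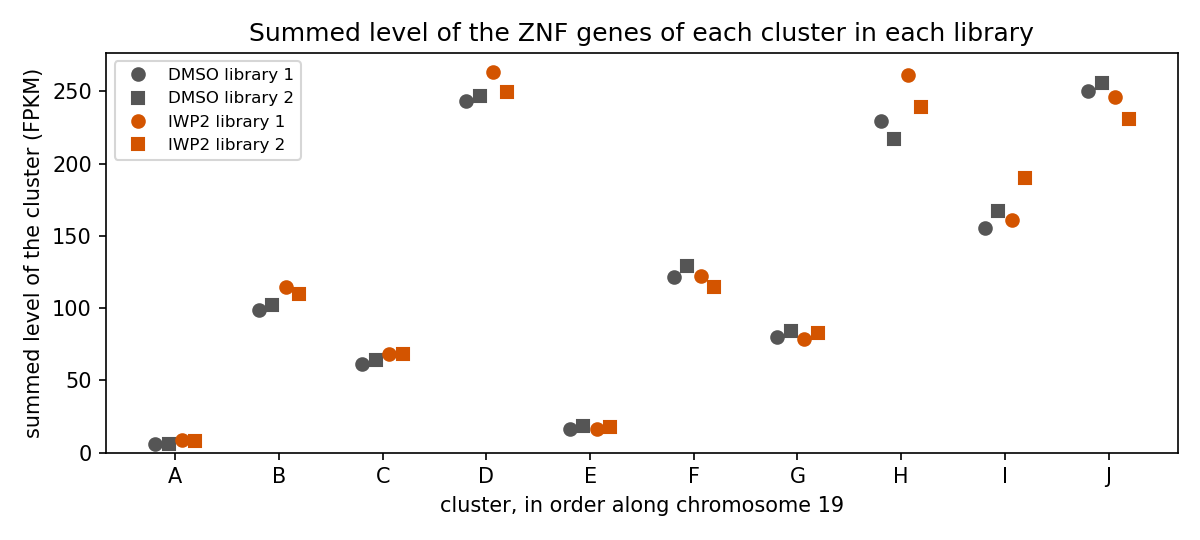
Summed level in FPKM (linear axis from 0) of the ZNF genes in each of clusters A to J, with a point for each of the 4 libraries (gray for DMSO, orange for IWP2). Cluster H lies higher in both IWP2 libraries (261.1 and 238.9) than in the DMSO libraries (229.1 and 217.1), and clusters E, F, G and I overlap.

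By sequence feature, the median log2 change was 0.06 in the 166 tested members with the KRAB letters and 0.06 in the 54 tested coding members without them. Higher in both IWP2 libraries were 56 of the former and 16 of the latter, and lower were 30 and 5, where 27.6% of all genes were higher and 31% lower. All 7 coding members that passed the test carried the letters, as did 166 of all 220 tested coding members. The 21 members with the TCF/LEF letters before their start had a median log2 change of 0.12, with 8 higher, 2 lower and 0 that passed the test, and the 175 tested members with a promoter but without the letters had a median of 0.05. A match of letters is a description and not a binding site.

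Members with a known role in silencing repeats were examined beside the partners of the family. ZNF91 and ZNF93, which repress SVA and L1 elements, and ZNF274, which binds the 3′ ends of other zinc finger genes, were chosen for these roles. ZNF91 was at 8.60 and 9.58 FPKM with DMSO and 9.04 and 8.94 FPKM with IWP2. ZNF274 was at 11.9 and 12.9 FPKM with DMSO and 12.8 and 12.5 FPKM with IWP2. In both of these the IWP2 libraries lay within the range of the DMSO libraries. ZNF93 was at 17.9 and 16.5 FPKM with DMSO and 21.4 and 20.3 FPKM with IWP2, a log2 change of 0.27 ± 0.10 (SE, limma adjusted p = 0.152).

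Of 30 genes of the co-repressor machinery and linked silencing factors 29 were tested, of which 1 rose and 0 fell. Over all tested genes 5.76% rose and 7.42% fell. The median log2 change of the 29 was -0.04. TRIM28, the shared partner of KRAB domains, was at 362.9 and 398.7 FPKM with DMSO and 377.0 and 391.4 FPKM with IWP2, a log2 change of 0.01 ± 0.0861 (SE, limma adjusted p = 0.935). SETDB1, the histone methyltransferase that TRIM28 recruits, was at 15.97 and 14.3 FPKM with DMSO and 13.4 and 15.1 FPKM with IWP2, with overlapping groups. The gene that rose was TRIM24, a relative of TRIM28 that acts as a nuclear receptor cofactor and chromatin reader. It was at 26.2 and 34.4 FPKM with DMSO and 56.6 and 55.7 FPKM with IWP2, a log2 change of 0.89 ± 0.146 (SE, limma adjusted p = 0.0211). This call was kept without the DMSO library numbered 2 and lost without any of the other 3 libraries, when the adjusted p reached 0.189. ZFP57, the KRAB zinc finger gene of imprint maintenance, was not tested and stayed at or below 0.172 FPKM.

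Some of these levels rest on sequence that several genes share. Over the members, the median share of 50-base stretches found also in transcripts of other genes was 5.33%, and 33 members shared at least 25%, up to 93.8% in ZNF833P. ZNF814 (26.9%), ZNF446 (51.2%) and the abundant members ZNF358 (28.6%) and ZNF428 (25.04%) are among them. An overlapping gene was annotated for 189 members, on the opposite strand for 137 of these. Of the 8 members that passed the test, the highest share was 9.30%, in ZNF702P. Across the 227 tested members the correlation of log2 levels between libraries was 0.964 within DMSO, 0.968 within IWP2 and 0.946 to 0.949 between groups, and these points share the same libraries and genes.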

How the data were processed

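Total RNA (2 µg) of 4 libraries was prepared with the Illumina TruSeq RNA kit. The authors deposited a table of FPKM values per gene with no counts, so depth is unknown and the number of libraries limits precision. The submitters' processing notes name BWA, Bowtie, RSEM and hg19 with no versions, yet 99.83% of the 55723 shared gene IDs lie at their GENCODE 29 positions on GRCh38 once 1 is added to the start, so GRCh38 is given. The DMSO columns carry the sign for no IWP2 and a number, and were assigned to the group, not to a labeled sample. The 4 value columns were all used.

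Values were tested as log2(FPKM + 0.5) with limma 3.58.1 (lmFit, eBayes with trend) in R 4.3.3, over the 15980 genes with a mean of at least 0.5 FPKM, with Benjamini-Hochberg adjustment. Fold changes on this scale understate low genes. The script was tested on simulated data. Named members were those past the threshold, the 10 largest rises and falls among members of at least 1 FPKM with separate groups, the 10 most abundant and the cluster ends. Neighbors in runs, ZNF91, ZNF93 and ZNF274 and members near a threshold were added after values were seen. Members and lists were chosen with earlier results of these data known. Alternatives were 2 pseudocounts, 2 filters, 3 scalings, a replicate block, no trend and leaving out each library. Sequences were read with Biopython 1.88. Duplicated libraries were not seen, since the libraries of a group correlated at 0.964 and 0.968 over the tested members.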

Additional observations from a re-analysis of the deposited data

How the results depend on the processing

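The 8 calls among the members kept their direction in all 13 alternatives, with log2 changes between -0.93 and -0.69 for those that fell and between 0.35 and 0.95 for those that rose. Leaving out any library, which leaves a lone sample assumed to vary like the other group, left 0 calls among the members and 95 to 572 among all genes, and gave a median log2 change of the members of 0.0214 to 0.0775 and 0 to 1 call in the co-repressor list. Without a filter on low values the members had 0 calls, all genes 313 and the co-repressor list 0, where more genes entered the adjustment. Rescaling to the same sum gave 5 calls, 2 of them higher, and centering on the median gave 10 higher and 1 lower with a median log2 change of 0.14. Quantile normalization gave a median of 0.11. Without a mean-variance trend there were 4 calls, 2 of them higher, and 0 in the co-repressor list. The replicate block gave 5 calls, 3 of them higher (ZNF649, ZNF431 and ZNF880) and 2 lower (ZNF611 and ZNF552, not ZNF792 and ZNF702P). Of all genes, 13.5% were called after rescaling, 13.7% after centering, 10.5% without the trend and 12.1% with the block. Deviations of same-numbered libraries correlated at 0.137, but with 2 pairs the numbers are not shown to pair the libraries. ZNF649 and ZNF431 passed the threshold in 8 of 13 alternatives, ZNF792 in 7, ZNF880 and ZNF702P in 6, and ZNF738, ZNF331 and ZNF418 in 5. The pseudocounts gave the same 6 higher and 2 lower counts. With a library left out, these genes with small log2 changes turned sign, over the ranges given: ZNF581 (-0.0364 to 0.316), ZNF358 (-0.236 to 0.0354), ZNF787 (-0.0819 to 0.268), ZNF446 (-0.28 to 0.0928), ZNF846 (-0.0862 to 0.591), ZNF653 (-0.0356 to 0.221), ZNF791 (-0.377 to 0.0555), ZNF180 (-0.0209 to 0.173), ZNF175 (-0.495 to 0.104), ZNF628 (-0.115 to 0.449), ZNF43 (-0.0521 to 0.122), ZNF91 (-0.0874 to 0.0613) and ZNF274 (-0.0269 to 0.086). ZNF91 also turned sign after centering on the median (0.0635) and after quantile normalization (0.0541). The counts of neighbor runs and of members past 1 in size under other settings were added after seeing the data. The cause of these shifts was not tested.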

Other observations

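Zinc finger genes of chromosome 19 with other names were picked by a short set of names, which may not hold all such genes. ZSCAN5A is repeated among these rows. Of 19 rows named ZFP, ZSCAN, ZIM, ZIK1, PEG3 or ZBTB, 11 were tested, 0 rose and 1 fell (9.09%). ZSCAN5A, a SCAN domain zinc finger gene in cluster I, was at 8.12 and 9.38 FPKM with DMSO and 4.15 and 3.30 FPKM with IWP2, a log2 change of -1.14 ± 0.166 (SE, limma adjusted p = 0.0152). Its size was larger than that of any change among the 227 tested members.

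Among ZNF genes on other chromosomes, 8 of 234 had a log2 change of at least 1 in size, and 7 of these passed the test. ZNF521 on chromosome 18 had the largest fall, from 18.6 and 36.4 FPKM with DMSO to 1.63 and 0.672 FPKM with IWP2, a log2 change of -4.07 ± 0.419 (SE, limma adjusted p = 0.00601). ZNF703 (-1.79) and ZNF516 (-1.70) also fell. The largest rise was that of ZNF488 on chromosome 10, from 0.768 and 0.422 FPKM to 2.98 and 2.97 FPKM, a log2 change of 1.69 ± 0.245 (SE, limma adjusted p = 0.0151). ZNF219 on chromosome 14 was at 21.3 and 17.8 FPKM with DMSO and 53.9 and 55.7 FPKM with IWP2, a log2 change of 1.47 ± 0.114 (SE, limma adjusted p = 0.00309). ZNF710 on chromosome 15 was at 24.97 and 29.8 FPKM with DMSO and 11.3 and 8.38 FPKM with IWP2, a log2 change of -1.44 ± 0.176 (SE, limma adjusted p = 0.00955). ZNF770 on chromosome 15 was at 13.03 and 13.1 FPKM with DMSO and 30.8 and 27.5 FPKM with IWP2, a log2 change of 1.12 ± 0.103 (SE, limma adjusted p = 0.00459).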
